A study of Mus musculus with 12 samples.

Results

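The 34 genes described here encode the enzymes of cholesterol synthesis, the enzymes of fatty acid synthesis, and the proteins that control both. They were chosen by name as 17 sterol enzymes, 7 regulators and 10 fatty acid enzymes, out of 55471 genes in the count table, with the condition of at least 10 counts in every library. All 34 met it, since the lowest count of any of them in any library was 116, and all 34 were among the 18228 genes tested. RNA was measured by RNA-seq in bone marrow-derived dendritic cells (DCs), grown with GM-CSF from marrow of C57BL/6 mice. During culture the cells received, by retrovirus, a short hairpin RNA together with a human CD8 reporter, by which cells that carried the hairpin were later sorted. The 4 groups of 3 libraries were unstimulated shControl cells, whose hairpin targets firefly luciferase, unstimulated sh*Ppargc1b* cells, whose hairpin targets *Ppargc1b*, and cells of both kinds treated with IFN-β for 6 h. All groups thus carried a hairpin vector, and no group was left untransduced. The labels do not say which hairpin against *Ppargc1b* was used, nor that the libraries of a group came from separate cultures or mice, so that p-values measure the spread between these libraries, which may be technical.

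Cells build cholesterol from acetyl-CoA through mevalonate, farnesyl diphosphate, squalene and lanosterol, and they build fatty acids from the same acetyl-CoA, which ATP citrate lyase and acetyl-CoA synthetase supply in the cytosol. Transcription of most of these enzymes is driven by the sterol regulatory element-binding proteins (SREBPs), the products of *Srebf1* and *Srebf2*. SCAP escorts the SREBPs from the endoplasmic reticulum to the Golgi, where they are cut and released, and the INSIG proteins hold SCAP back when sterols are plentiful. 25-Hydroxycholesterol, the product of *Ch25h*, is an oxysterol that binds INSIG, and *Ch25h* is a known interferon-inducible gene of macrophages and DCs. *Ppargc1b* encodes PGC-1β, a transcriptional co-activator known for its role in mitochondrial metabolism and, in liver, for co-activation of SREBPs.

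Promoters of 27 of the 34 genes were found among RefSeq promoters of GRCm38.p6 (250 bases before and 50 bases after each start site). *Fdps*, *Fdft1*, *Sqle*, *Stard4*, *Scd1*, *Scd2* and *Fads1* were not matched. Several short motifs were searched on both strands, and no matches of different motifs overlapped in these promoters. CCAAT, the box bound by NF-Y, a partner of SREBPs at sterol genes, was present in a promoter of 14 of 14 sterol enzyme genes, 4 of 6 regulators and 4 of 7 fatty acid enzyme genes, against 41.1% of all 27025 genes with a promoter. Counted over promoters, since some genes have several start sites, these were 14 of 17 for the sterol enzymes (82.4%) and 37.4% of all. GGGCGG, the Sp1 box, was present for 13 of 14 sterol enzymes, 5 of 6 regulators and 3 of 7 fatty acid enzymes, against 38.2% of all genes. TCACNCCAC, a core of the sterol regulatory element, was found for *Hmgcs1* alone, against 1.44% of all genes. CACGTG, the E-box, was found for 6 of 27 genes, against 8.09% of all genes. GAAANNGAA, a core of the interferon-stimulated response element, was found for *Ebp* alone, against 9.76% of all genes. These are matches of letters in a short window, and sites outside it were not searched. The 250 bases before the start site are printed 5′ to 3′ on the strand of the gene for 6 genes: *Hmgcs1*, with the sterol regulatory element core, *Mvk*, with the most CCAAT boxes of the enzymes, *Nsdhl*, a sterol enzyme that was lower in the knockdown cells, *Fasn*, with the most CCAAT boxes of the fatty acid enzymes, and *Elovl6* and *Ch25h*, the genes that changed most with IFN-β. Capitals mark CCAAT or its reverse complement ATTGG and, in *Hmgcs1*, also TCACCCCAC. *Elovl6* and *Ch25h* have no capitals because neither motif occurs in the printed stretch.
*Hmgcs1* (chr13:119690101-119690350, plus strand): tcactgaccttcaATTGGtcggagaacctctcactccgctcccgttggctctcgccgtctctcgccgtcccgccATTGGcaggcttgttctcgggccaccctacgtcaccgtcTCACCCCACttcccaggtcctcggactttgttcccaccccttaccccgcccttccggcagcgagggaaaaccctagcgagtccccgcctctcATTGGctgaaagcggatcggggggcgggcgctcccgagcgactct
*Mvk* (chr5:114444019-114444268, plus strand): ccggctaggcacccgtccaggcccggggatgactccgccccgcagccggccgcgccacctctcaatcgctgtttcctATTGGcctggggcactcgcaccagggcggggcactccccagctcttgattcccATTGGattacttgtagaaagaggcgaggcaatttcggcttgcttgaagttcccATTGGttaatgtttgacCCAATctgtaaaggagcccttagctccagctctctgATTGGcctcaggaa
*Nsdhl* (chrX:72918271-72918520, plus strand): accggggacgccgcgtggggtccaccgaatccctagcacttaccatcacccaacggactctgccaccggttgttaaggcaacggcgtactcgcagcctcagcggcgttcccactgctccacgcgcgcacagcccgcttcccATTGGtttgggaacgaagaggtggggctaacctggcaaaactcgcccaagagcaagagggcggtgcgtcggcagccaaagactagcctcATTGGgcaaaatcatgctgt
*Fasn* (chr11:120824548-120824797, minus strand): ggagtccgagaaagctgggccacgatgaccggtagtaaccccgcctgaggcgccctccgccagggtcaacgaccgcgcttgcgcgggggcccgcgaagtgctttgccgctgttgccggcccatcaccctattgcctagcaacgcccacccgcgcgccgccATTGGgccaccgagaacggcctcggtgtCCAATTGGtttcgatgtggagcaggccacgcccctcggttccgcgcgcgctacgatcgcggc
*Elovl6* (chr3:129532136-129532385, plus strand): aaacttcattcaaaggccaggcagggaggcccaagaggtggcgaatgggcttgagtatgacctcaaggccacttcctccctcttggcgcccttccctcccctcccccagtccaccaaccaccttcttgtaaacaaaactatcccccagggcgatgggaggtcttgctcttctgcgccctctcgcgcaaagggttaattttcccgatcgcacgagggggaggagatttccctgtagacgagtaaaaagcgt
*Ch25h* (chr19:34475149-34475398, minus strand): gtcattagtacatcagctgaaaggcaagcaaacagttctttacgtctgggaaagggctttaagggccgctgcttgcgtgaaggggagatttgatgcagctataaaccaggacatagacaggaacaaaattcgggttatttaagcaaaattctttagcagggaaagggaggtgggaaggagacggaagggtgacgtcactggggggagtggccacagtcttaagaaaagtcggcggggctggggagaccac
In *Hmgcs1* the sterol regulatory element core begins 137 bases before the start site and lies between CCAAT boxes that begin 176 and 45 bases before it. In *Mvk* there are 5 CCAAT boxes, which begin between 173 and 14 bases before the start site.

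Libraries held between 49919648 and 77726101 counts. *Ppargc1b*, the targeted gene, had 33.4, 33.3 and 36.7 CPM (counts scaled to library size with TMM factors) in unstimulated shControl and 18.6, 19.3 and 20.3 CPM in unstimulated sh*Ppargc1b* cells, which was 56.3% of the control level. With IFN-β it had 31.4, 23.6 and 28.4 CPM in shControl and 19.6, 15.5 and 20.9 CPM in sh*Ppargc1b* cells, or 67.2%, so that the libraries carried the labelled knockdown. The interferon response genes *Ifit1*, *Isg15*, *Mx1* and *Irf7* rose with IFN-β in both cell types (4 of 4). The summed level of 9 dendritic cell markers was 3720 to 4350 CPM in unstimulated shControl against 4430 to 5030 CPM in sh*Ppargc1b* cells, and 4110 to 4900 against 4960 to 5620 CPM with IFN-β. That of 9 macrophage markers was 2730 to 2870 against 2490 to 2550 CPM, and 3420 to 3650 against 3020 to 3150 CPM. Of the 9 dendritic cell markers 6 were higher in the knockdown in either condition, and of the 9 macrophage markers 3 were lower without and 4 with IFN-β. Of 7 neutrophil markers, whose sum was 45.2 to 75.2 against 79.8 to 130 CPM unstimulated and 51.2 to 86.9 against 80.8 to 134 CPM with IFN-β, 2 were higher in the knockdown in each condition, among them *S100a8* (0.83 and 0.88). No dendritic cell or macrophage marker was at 0 in all libraries. The sum of 5 proliferation markers was 254 to 339 CPM without and 218 to 246 CPM with IFN-β in shControl, and 166 to 266 against 143 to 221 CPM in sh*Ppargc1b* cells. The T and NK cell markers *Cd3e*, *Cd3g* and *Ncr1* stayed under 10 counts in every library. The part of these shifts in the results below was not tested, and in bulk RNA fewer cells of a type and less RNA per cell cannot be told apart. TMM factors were 1.07 to 1.09 without and 0.914 to 0.941 with IFN-β, so that the scaling matters for IFN-β. The median response over all genes was -0.03 (log2) in shControl and -0.02 in sh*Ppargc1b* cells, and became -0.27 and -0.22 when totals alone set the scale.

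Levels of the 34 genes spanned a wide range in unstimulated shControl cells when expressed per length (RPKM, from TMM-scaled libraries and the summed exon length of each gene). The fatty acid arm held the 4 highest. *Scd2*, a stearoyl-CoA desaturase that puts the first double bond into saturated acyl chains, had 268 ± 25.2 RPKM (SD, n = 3), and *Acly*, ATP citrate lyase, had 105 ± 3.86 RPKM. They were followed by *Elovl5*, an elongase of polyunsaturated fatty acids, at 35.8 ± 1.33 RPKM and *Scd1*, the second desaturase, at 34.9 ± 3.49 RPKM, which did not differ beyond their spread. The highest sterol enzyme was *Hmgcs1*, HMG-CoA synthase, at 27.7 ± 2.83 RPKM. *Mvd*, *Sqle*, *Srebf2*, *Sc5d*, *Insig1* and *Cyp51* lay close together between 19.5 and 21.8 RPKM. *Ch25h* (1.52 ± 0.169 RPKM), *Fdps* (1.04 ± 0.204 RPKM) and *Tm7sf2* (0.894 ± 0.0644 RPKM) were the lowest. Summed over its genes, the fatty acid arm had 2740 ± 176 CPM, the sterol arm 803 ± 51.4 CPM and the regulators 420 ± 9.47 CPM in these cells. These sums are weighted to *Scd2* and *Acly*, and both arms' sums were lower with IFN-β, with no overlap between libraries.

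**Figure D1:**
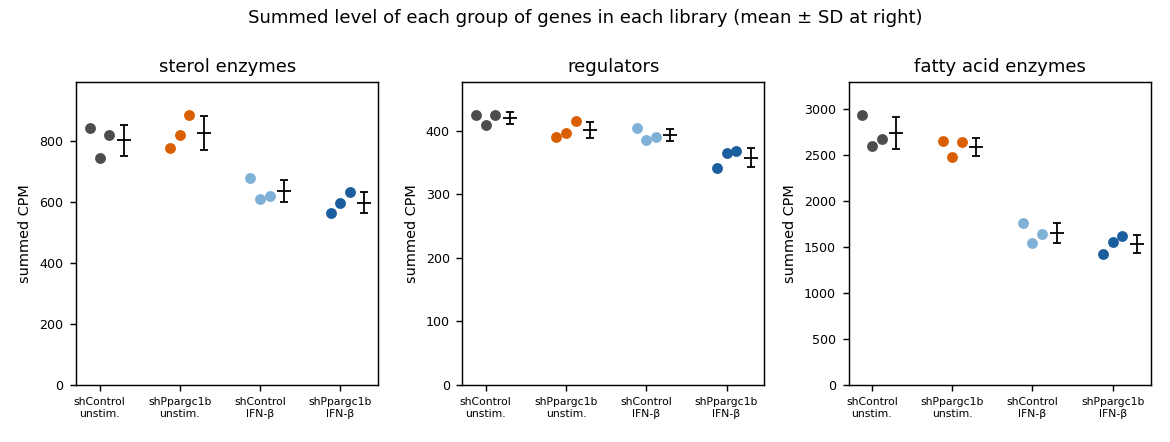
Summed level (CPM, y axis) of the 17 sterol enzymes, 7 regulators and 10 fatty acid enzymes in each of the 12 libraries by group (x axis), with the mean ± SD of 3 libraries to the right of the points. The fatty acid enzymes summed to 2740 CPM in unstimulated and 1650 CPM in IFN-β-treated shControl cells, and to 2590 and 1530 CPM in sh*Ppargc1b* cells; the sterol enzymes summed to 803 and 636 CPM, and to 827 and 598 CPM.

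The first question was how IFN-β changed the pathway. Most enzymes of both arms fell, and the median fall was larger in the fatty acid arm. The ranges of the arms overlapped, and a difference between them was not tested. Sterol enzymes ranged from -0.69 to 0.16 in shControl and from -0.95 to 0.11 in sh*Ppargc1b* cells. Fatty acid enzymes ranged from -1.65 to 0.06 and from -1.21 to -0.10. In shControl cells 13 of 17 sterol enzymes fell and 1 rose, with a median log2 fold change of -0.37, and 9 of 10 fatty acid enzymes fell and 0 rose, with a median of -0.59. Among the 7 regulators 3 fell and 1 rose. In sh*Ppargc1b* cells 14 sterol enzymes (median -0.43) and 9 fatty acid enzymes (median -0.53) fell and 0 of either arm rose, with 3 regulators lower and 1 higher. Over all genes tested, 24.6% fell and 23.7% rose in shControl cells (median -0.03), and 21.2% fell and 21.4% rose in sh*Ppargc1b* cells (median -0.02). Treated and untreated libraries were fully apart for 27 of the 34 genes in shControl and for 26 in the knockdown, where 56.7% and 50.1% of all genes were. A total of 25 genes fell in both cell types, 13 sterol enzymes, 3 regulators and 9 fatty acid enzymes, and *Ch25h* rose in both. When libraries were scaled by their totals alone, the medians for shControl were -0.61 for the sterol and -0.83 for the fatty acid enzymes beside -0.27 for all genes. For sh*Ppargc1b* cells they were -0.64 and -0.73 beside -0.22. Of all called genes, 49.0% rose in shControl and 50.2% in sh*Ppargc1b* cells under TMM, but 23.9% and 23.7% under library totals and 39.1% and 39.8% under upper quartile factors.

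**Figure D2:**
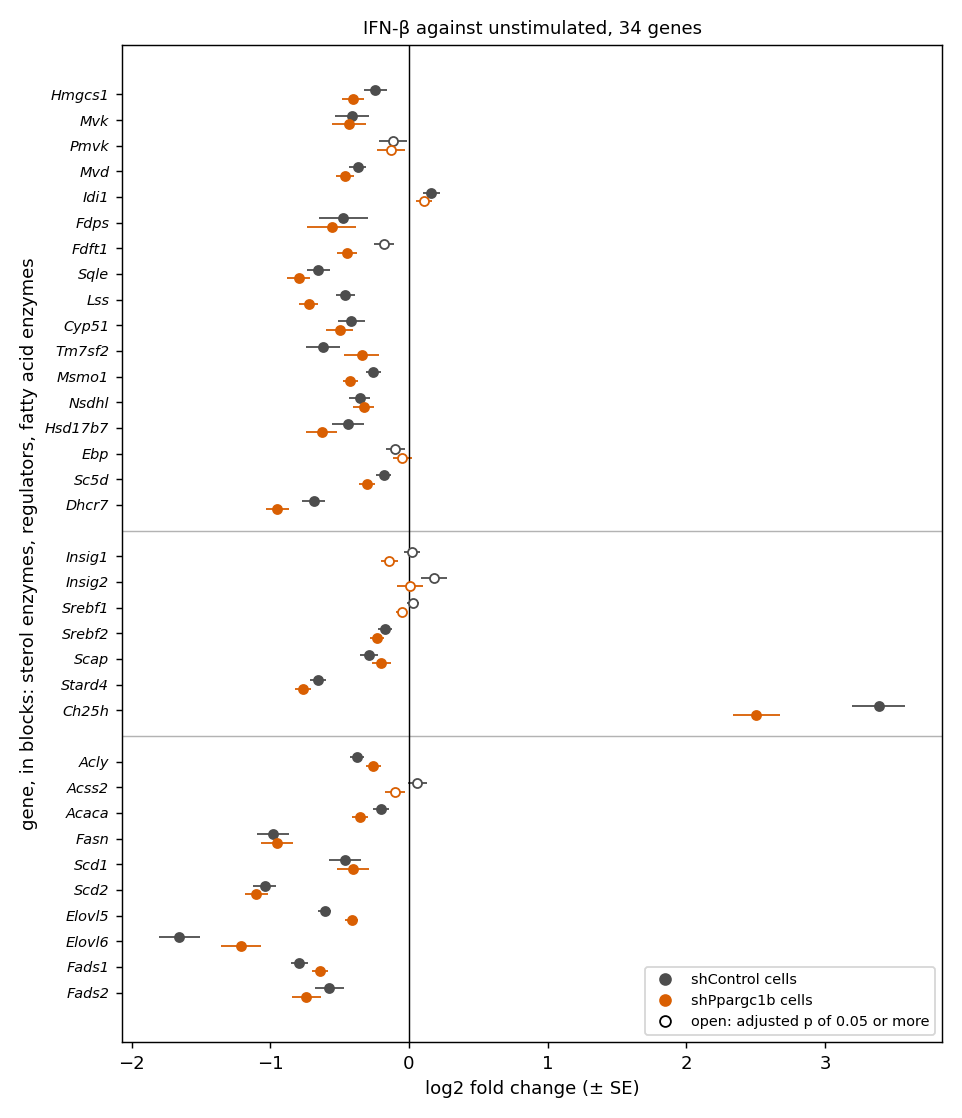
Log2 fold change of IFN-β against unstimulated cells (x axis, with the standard error as bars) for the 34 genes (y axis), in shControl (grey) and sh*Ppargc1b* (orange) cells, filled where the adjusted p passed 0.05. Most enzymes lie left of 0 in both cell types, *Elovl6* lies farthest left (-1.65 and -1.21), and *Ch25h* stands alone at the right (3.39 and 2.50).

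Within fatty acid synthesis the falls were largest at the synthase and at the steps that elongate and desaturate its product. *Elovl6*, the elongase that turns palmitate into stearate, had 16.2, 12.9 and 16.8 CPM in unstimulated shControl libraries and 4.75, 4.84 and 4.99 CPM with IFN-β. In sh*Ppargc1b* cells it had 10.2, 11.8 and 13.5 CPM without and 4.78, 4.15 and 6.40 CPM with IFN-β. Every treated library lay below every untreated one, and IFN-β left 31.7% of the level in shControl (log2 fold change -1.65 ± 0.15 SE, adjusted p = 1.33e-07) and 43.2% in sh*Ppargc1b* cells (-1.21 ± 0.15, adjusted p = 5.8e-06). *Scd2* had 1620, 1410 and 1370 CPM in unstimulated shControl and 777, 664 and 697 CPM with IFN-β. Levels in sh*Ppargc1b* cells were 1530, 1390 and 1420 CPM without and 591, 736 and 696 CPM with IFN-β. Groups with and without IFN-β were well apart, and the level fell to 48.6% (-1.04 ± 0.08, adjusted p = 4.24e-08) and to 46.6% (-1.10 ± 0.08, adjusted p = 3e-08). *Fasn*, the fatty acid synthase that makes palmitate, had 117, 114 and 151 CPM in unstimulated shControl and 65.0, 59.4 and 68.9 CPM with IFN-β. Its levels in sh*Ppargc1b* cells were 121, 137 and 161 CPM without and 74.0, 64.0 and 78.9 CPM with IFN-β. Here too no treated library reached an untreated one, and about as much was left in the knockdown (51.8%) as in the control cells (50.6%), or -0.95 ± 0.12 (adjusted p = 6.19e-06) and -0.98 ± 0.12 (adjusted p = 3.43e-06) on the log2 scale.

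The paralogs of the desaturases and elongases fell less steeply with IFN-β. *Scd1* had 189, 155 and 170 CPM in unstimulated and 143, 108 and 123 CPM in treated shControl cells, and 171, 138 and 174 against 130, 102 and 134 CPM in sh*Ppargc1b* cells. Its groups did not overlap, and it fell by 0.46 (adjusted p = 0.00399) and by 0.40 (adjusted p = 0.0109, and 0.0571 without sh*Ppargc1b* IFN-β library 2), set beside -1.04 and -1.10 for *Scd2*. *Elovl5* had 131, 122 and 126 CPM in unstimulated and 83.3, 80.7 and 84.6 CPM in treated shControl cells, and 115, 124 and 122 against 94.0, 84.6 and 93.5 CPM in sh*Ppargc1b* cells. It fell by 0.61 (adjusted p = 3.54e-08) and by 0.41 (adjusted p = 4.03e-06) on the log2 scale. *Fads1* and *Fads2*, the delta-5 and delta-6 desaturases that make polyunsaturated fatty acids, both fell. For *Fads1* the values were 75.6, 68.7 and 72.9 CPM against 44.5, 38.3 and 42.8 CPM in shControl, and 89.5, 89.9 and 97.3 CPM against 55.9, 59.5 and 61.8 CPM in sh*Ppargc1b* cells. For *Fads2* they were 38.1, 32.1 and 37.6 CPM against 26.1, 21.2 and 25.1 CPM, and 46.3, 46.0 and 56.5 CPM against 26.3, 28.9 and 34 CPM. No treated library reached an untreated one of its cell type, and the log2 fold changes were -0.79 and -0.64 for *Fads1* and -0.57 and -0.74 for *Fads2*. The enzymes upstream of the synthase moved less. *Acly* fell by 0.37 and 0.26, and *Acaca*, the acetyl-CoA carboxylase that commits carbon to fatty acids, fell by 0.20 (adjusted p = 0.00879) and 0.36 (adjusted p = 0.00013). Of the 100-base windows of the *Acaca* transcript, 42.8% also occur in the pseudogene *Gm5182*, so its counts are uncertain. *Acss2*, the acetyl-CoA synthetase, did not pass the test, at 0.06 (adjusted p = 0.509) and -0.10 (adjusted p = 0.279). Under library totals it was called lower in both cell types (-0.18 and -0.30). In sh*Ppargc1b* cells it was also called lower without IFN-β library 3.

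**Figure D3:**
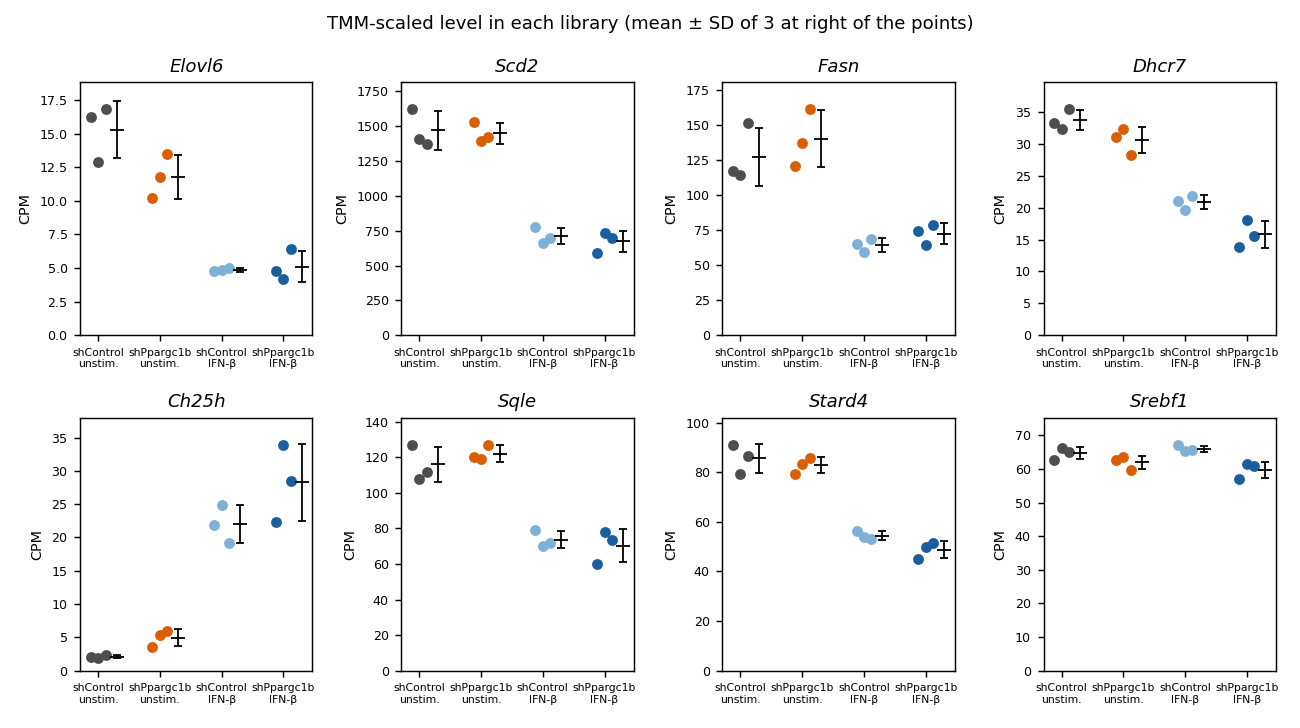
CPM (y axis) in each library of the 4 groups (x axis), with the mean ± SD of 3 libraries to the right of the points, for 8 genes of the pathway. *Elovl6*, *Scd2*, *Fasn*, *Dhcr7*, *Sqle* and *Stard4* are lower in every treated library than in any untreated library of the same cell type, *Ch25h* is higher (1.90 to 2.36 CPM against 19.1 to 24.9 CPM in shControl), and *Srebf1* stays between 57.0 and 67.2 CPM throughout.

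Along the sterol pathway the median fall was smaller, and the 3 largest falls in each cell type were at steps from squalene onward. *Dhcr7* and *Sqle* still fell more than *Elovl5*, *Scd1*, *Acly* and *Acaca* of the fatty acid arm in both cell types. *Dhcr7*, the reductase of the last step to cholesterol, had 33.3, 32.3 and 35.4 CPM in unstimulated and 21, 19.7 and 21.9 CPM in treated shControl cells. The sh*Ppargc1b* cells had 31.1, 32.3 and 28.3 CPM without and 13.9, 18.0 and 15.5 CPM with IFN-β. The groups did not overlap, and 62.0% and 51.7% of the level was left, which is -0.69 ± 0.08 (adjusted p = 3.81e-06) and -0.95 ± 0.08 (adjusted p = 1.61e-07) on the log2 scale. *Sqle*, squalene epoxidase, ranged from 108 to 127 CPM in unstimulated and from 70.3 to 79.3 CPM in treated shControl cells, and from 119 to 127 against 59.7 to 77.7 CPM in sh*Ppargc1b* cells. It fell by 0.66 and 0.79 on the log2 scale (adjusted p = 8.09e-06 and 1.37e-06). *Lss*, which closes squalene epoxide into lanosterol, fell by 0.46 and 0.72. The enzymes that then trim lanosterol fell by 0.41 and 0.50 (*Cyp51*), 0.26 and 0.42 (*Msmo1*), 0.36 and 0.33 (*Nsdhl*), 0.44 and 0.63 (*Hsd17b7*), and 0.18 and 0.30 (*Sc5d*), each pair being shControl and sh*Ppargc1b* cells. *Tm7sf2*, a sterol reductase, fell by 0.62 and 0.34, and its call in sh*Ppargc1b* cells (adjusted p = 0.0353) was lost in 7 of 19 alternative analyses, 5 of which left out a library of that comparison (adjusted p up to 0.168). The 19 are 7 other settings and each of the 12 libraries left out. *Ebp*, the sterol isomerase, did not pass the test in either cell type, at -0.10 (adjusted p = 0.255) and -0.05 (adjusted p = 0.629), and it was the gene with the interferon-stimulated response element core. Under library totals *Ebp* was called lower in both cell types, and in shControl cells also under upper quartile factors.

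The early steps were mixed. *Hmgcs1*, whose promoter held the sterol regulatory element core, ranged from 113 to 137 CPM in unstimulated and from 102 to 117 CPM in treated shControl cells, which overlap, and fell by 0.24 (adjusted p = 0.0207). Among sh*Ppargc1b* libraries it ranged from 137 to 161 against 105 to 117 CPM and fell by 0.41 (adjusted p = 0.000668). *Mvk*, mevalonate kinase, fell by 0.41 and 0.43, and *Mvd*, mevalonate diphosphate decarboxylase, by 0.37 and 0.46. *Pmvk*, phosphomevalonate kinase, did not pass the test, at -0.12 (adjusted p = 0.369) and -0.13 (adjusted p = 0.326), but was called lower in both cell types under library totals. *Idi1*, the isopentenyl diphosphate isomerase, was the exception in direction, with 17.9, 17.3 and 16.9 CPM in unstimulated and 20.6, 19.0 and 18.7 CPM in treated shControl cells. These groups did not overlap and *Idi1* rose by 0.16 ± 0.06 (adjusted p = 0.0403), a call lost in 10 of 19 alternatives without a change of sign. In 1 more, library totals, the call was also lost and the sign turned (-0.08, adjusted p = 0.301). Of its 100-base windows, 27.6% occur in other genes. The sh*Ppargc1b* cells were at 0.11 (adjusted p = 0.171). *Fdps*, farnesyl diphosphate synthase, fell by 0.47 (adjusted p = 0.0373) and 0.56 (adjusted p = 0.0193), from levels of 3.08 to 5.34 CPM, and the calls were lost in 5 and in 3 alternatives (adjusted p up to 0.174 and 0.134). *Fdft1*, squalene synthase, fell by 0.45 in sh*Ppargc1b* cells (adjusted p = 0.000134) and was at -0.18 in shControl cells (adjusted p = 0.0559). The latter was called lower in 9 of 19 alternatives, among them library codes as blocks (-0.16, adjusted p = 0.0369). *Fdps* shares 26.7% of its exon bases with *Gm43738* and *Fdft1* shares 18.3% with *Ctsb*, on the opposite strand, and the strand setting of the counting is not given in the sources used here. Several small falls in shControl cells were not called without 1 of the treated libraries. Without library 2 this held for *Srebf2* (adjusted p = 0.114), and without library 2 or 3 for *Mvk*, *Sc5d* and *Acaca* (adjusted p up to 0.0594, 0.0868 and 0.0545). *Hmgcs1* lost its call without untreated library 1 or 3 or treated library 2 or 3 (adjusted p up to 0.116). The fall of *Mvk* in sh*Ppargc1b* cells was not called without untreated library 3 (adjusted p = 0.0542).

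Among the regulators, *Ch25h* had the largest rise of the 34 genes. It had 2.05, 1.90 and 2.36 CPM in unstimulated shControl and 21.9, 24.9 and 19.1 CPM with IFN-β. In sh*Ppargc1b* cells it had 3.54, 5.34 and 5.94 CPM without and 22.3, 33.9 and 28.5 CPM with IFN-β. All treated libraries were above all untreated ones, and the log2 fold change was 3.39 ± 0.19 in shControl (adjusted p = 6.52e-10) and 2.50 ± 0.17 in sh*Ppargc1b* cells (adjusted p = 9.39e-09). *Gm26902*, a gene on the opposite strand that shares 11.5% of the *Ch25h* exon bases, moved with it (2.44 and 1.57), so that their reads cannot be told apart in the shared stretch. *Srebf1*, which encodes the SREBP of fatty acid genes, had 62.8, 66.3 and 65.2 CPM in unstimulated and 67.2, 65.3 and 65.6 CPM in treated shControl cells, and 62.7, 63.5 and 59.8 against 57.0, 61.4 and 60.8 CPM in sh*Ppargc1b* cells. Its groups overlapped, with 0.03 (adjusted p = 0.639, but -0.21 under library totals) in shControl and -0.05 (adjusted p = 0.347) in sh*Ppargc1b* cells on the log2 scale. *Srebf2*, which encodes the SREBP of sterol genes, had 150, 145 and 153 CPM in unstimulated and 139, 125 and 133 CPM in treated shControl cells, and 144, 143 and 158 against 124, 123 and 133 CPM in sh*Ppargc1b* cells. It fell by 0.17 (adjusted p = 0.0108) and 0.23 (adjusted p = 0.00183), with no overlap. The 2 SREBP genes thus differed in their calls under TMM scaling. Under library totals *Srebf1* was called lower in both cell types (adjusted p = 0.000394 in shControl), and in sh*Ppargc1b* cells also under upper quartile factors. A difference between the 2 genes was not tested.

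*Scap* fell by 0.29 (adjusted p = 0.00187) and by 0.20 (adjusted p = 0.0238), the latter lost without sh*Ppargc1b* library 2 or 3 of either condition (adjusted p up to 0.108). *Stard4*, a carrier of cholesterol between membranes, ranged from 79.5 to 91.1 CPM in unstimulated and from 53.1 to 56.4 CPM in treated shControl cells, and from 79.3 to 85.7 against 45.0 to 51.5 CPM in sh*Ppargc1b* cells. It fell by 0.65 and 0.76 (adjusted p = 1.41e-07 and 3.14e-08), the largest fall of a regulator. *Insig1*, the INSIG gene that SREBPs induce, had 62.3, 60.1 and 66.6 CPM in unstimulated and 65.8, 62.7 and 63.6 CPM in treated shControl cells, which overlapped (0.02 on the log2 scale, adjusted p = 0.782, but -0.22 under library totals). The sh*Ppargc1b* libraries had 43.2, 47.0 and 52.0 against 42.3, 42.6 and 44.2 CPM, also overlapping (-0.14, adjusted p = 0.0735). *Insig2*, its paralog, had 32.7, 29.5 and 26.6 CPM in unstimulated and 32.2, 34.5 and 33.9 CPM in treated shControl cells (0.18, adjusted p = 0.126), and 32.5, 27.5 and 26.9 against 25.7, 32.7 and 28.8 CPM in sh*Ppargc1b* cells (0.01, adjusted p = 0.972). Neither INSIG gene passed the test with IFN-β in either cell type. However, 5 of 19 alternatives called *Insig1* lower in sh*Ppargc1b* cells, among them library totals, upper quartile factors and library codes as blocks (-0.14, adjusted p = 0.0387). *Insig2* was called higher in shControl cells by 1 alternative, with only the groups compared.

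The next question was whether the response to IFN-β differed between sh*Ppargc1b* and shControl cells. In the interaction test 0 of 34 genes passed in either direction (edgeR, adjusted p), where 0.0603% of all genes passed as higher and 0.669% as lower. DESeq2 and limma-voom also called 0. An unadjusted p under 0.05 was found for 7 of the 34. The share of all genes at that cut was not counted, so that the 7 cannot be called many or few. Of the 7, *Fdft1*, *Lss*, *Msmo1* and *Dhcr7* had lower values in the response of sh*Ppargc1b* cells (-0.27, -0.26, -0.16 and -0.26), and *Elovl5* and *Elovl6* had higher ones (0.20 and 0.44). The largest difference was in *Ch25h*, at -0.88 (95% confidence interval -1.38 to -0.38, adjusted p = 0.15). It was called in the fit without a filter on low counts, in the fit with library codes as blocks, and when sh*Ppargc1b* IFN-β library 2 was left out. The intervals of the differences were -0.29 to 0.35 for *Fasn* and -0.29 to 0.17 for *Scd2*. Medians of the interaction were -0.09 for sterol enzymes and 0.04 for fatty acid enzymes, beside a median of 0.00 for all genes.

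The last question was what *Ppargc1b* knockdown changed. Genes of the pathway moved in both directions, and the largest changes were in *Ch25h*, *Acly*, *Insig1*, *Fads1* and *Fads2*. In unstimulated cells 5 of 34 genes were higher and 4 lower in sh*Ppargc1b* than in shControl cells, where 12.4% of all genes were higher and 11.1% lower. The higher genes were *Ch25h*, *Fads2*, *Hsd17b7*, *Fads1* and *Idi1*, and the lower ones were *Acly*, *Insig1*, *Nsdhl* and *Ebp*. With IFN-β 2 were higher (*Fads1* and *Idi1*) and 9 lower, where 11.5% of all genes were higher and 12.7% lower. The 9 were *Insig1*, *Acly*, *Dhcr7*, *Nsdhl*, *Mvd*, *Sc5d*, *Ebp*, *Msmo1* and *Srebf1*, 6 of them sterol enzymes. The median log2 fold change with IFN-β was -0.16 for sterol enzymes, -0.14 for regulators and 0.05 for fatty acid enzymes, beside -0.01 for all genes. Without IFN-β these medians were 0.00, -0.03 and -0.01, beside -0.00 for all genes. Leaving out 1 library at a time gave 4 to 8 sterol enzymes past the threshold with IFN-β in place of 7, the 4 being without sh*Ppargc1b* IFN-β library 1. Knockdown and control libraries were fully apart for 10 genes without and 17 with IFN-β, where 36.8% and 38.7% of all genes were.

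**Figure D4:**
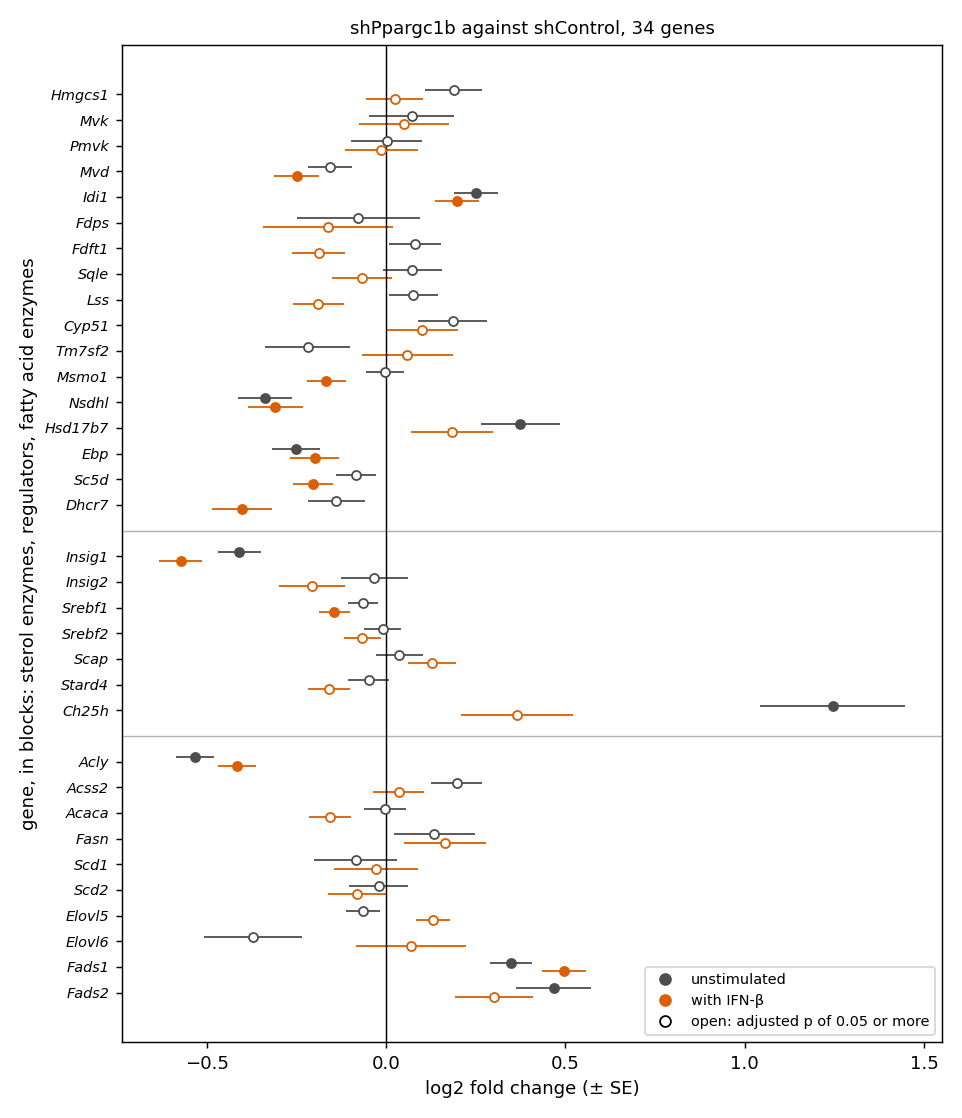
Log2 fold change of sh*Ppargc1b* against shControl cells (x axis, with the standard error as bars) for the 34 genes (y axis), unstimulated (grey) and with IFN-β (orange), filled where the adjusted p passed 0.05. *Acly* (-0.53 and -0.42), *Insig1* (-0.41 and -0.57) and *Nsdhl* (-0.34 and -0.31) lie left of 0 and *Fads1* (0.35 and 0.50) right of 0 in both, while *Ch25h* passed the threshold without IFN-β (1.25) and not with it (0.36), where 4 of 19 alternatives called it.

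*Acly*, the cytosolic source of acetyl-CoA for both arms, had 573, 534 and 563 CPM in unstimulated shControl and 387, 365 and 403 CPM in sh*Ppargc1b* cells. With IFN-β it had 450, 415 and 425 CPM in shControl and 301, 324 and 341 CPM in sh*Ppargc1b* cells. The groups did not overlap in either condition, and the knockdown cells held 69.1% of the control level without (log2 fold change -0.53 ± 0.05, adjusted p = 3.19e-06), and under IFN-β 74.9% (-0.42 ± 0.05, adjusted p = 3.6e-05). *Acss2*, the other source of acetyl-CoA, was at 0.20 (adjusted p = 0.056) and 0.03 (adjusted p = 0.777), and the first was called in 8 of 19 alternatives. *Acaca*, *Fasn*, *Scd1* and *Scd2* did not pass the test in either condition, with log2 fold changes between -0.16 and 0.16. With IFN-β, 2 of 19 alternatives called *Acaca* lower, with library codes as blocks (-0.17, adjusted p = 0.0187) and without sh*Ppargc1b* IFN-β library 3. The fit with all genes of at least 1 count called *Fasn* higher in both conditions.

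*Insig1* was the regulator lower in both conditions. Its values, given above, were 60.1 to 66.6 CPM in unstimulated shControl against 43.2 to 52.0 CPM in sh*Ppargc1b* cells, and 62.7 to 65.8 against 42.3 to 44.2 CPM with IFN-β. The groups were apart in both, and the level in the knockdown was 75.2% (-0.41 ± 0.06, adjusted p = 0.000114) and 67.2% (-0.57 ± 0.06, adjusted p = 6.84e-06) of the control. All 19 alternatives called both. *Insig2* was at -0.03 (adjusted p = 0.854) and -0.21 (adjusted p = 0.128) with overlapping groups. *Srebf1* was at -0.06 (adjusted p = 0.318) without IFN-β and lower by 0.14 with it (adjusted p = 0.0218), a call lost in 10 alternatives (adjusted p up to 0.156). *Srebf2*, *Scap* and *Stard4* did not pass the test in either condition. With IFN-β, 3 of 19 alternatives called *Stard4* lower, namely DESeq2, library codes as blocks (-0.17, adjusted p = 0.0332) and without sh*Ppargc1b* IFN-β library 3. *Ch25h* was higher in unstimulated sh*Ppargc1b* cells at 235% of the control level (1.25 ± 0.20, adjusted p = 0.000299), with 1.90 to 2.36 against 3.54 to 5.94 CPM, and was at 0.36 ± 0.16 with IFN-β (adjusted p = 0.109), where 19.1 to 24.9 and 22.3 to 33.9 CPM overlapped. The second was called in 4 of 19 alternatives, namely with all genes of at least 1 count (adjusted p = 0.000173), with library codes as blocks (0.34, adjusted p = 0.0427) and without sh*Ppargc1b* library 1 of either condition. *Gm26902* was at 1.25 and 0.38 in the same comparisons.

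*Fads1* was higher in sh*Ppargc1b* cells in both conditions, from 68.7 to 75.6 CPM against 89.5 to 97.3 CPM without and from 38.3 to 44.5 against 55.9 to 61.8 CPM with IFN-β. The groups did not overlap, and the differences were 0.35 ± 0.06 (adjusted p = 0.000426) and 0.50 ± 0.06 (adjusted p = 2.55e-05). *Fads2*, its neighbour in the pathway, was higher without IFN-β (32.1 to 38.1 against 46.0 to 56.5 CPM, 0.47 ± 0.10, adjusted p = 0.00387). With IFN-β it ranged from 21.2 to 26.1 against 26.3 to 34 CPM (0.30 ± 0.11, adjusted p = 0.0547), and 13 of 19 alternatives called it. The elongases did not pass the threshold, with *Elovl5* at -0.07 (adjusted p = 0.37) and 0.13 (adjusted p = 0.0616, called in 9 alternatives) and *Elovl6* at -0.37 (adjusted p = 0.0619) and 0.07 (adjusted p = 0.793). Untreated, *Elovl6* was 10.2 to 13.5 CPM in the knockdown and 12.9 to 16.8 CPM in the control, which overlap, and 9 of 19 alternatives called it lower.

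**Figure D5:**
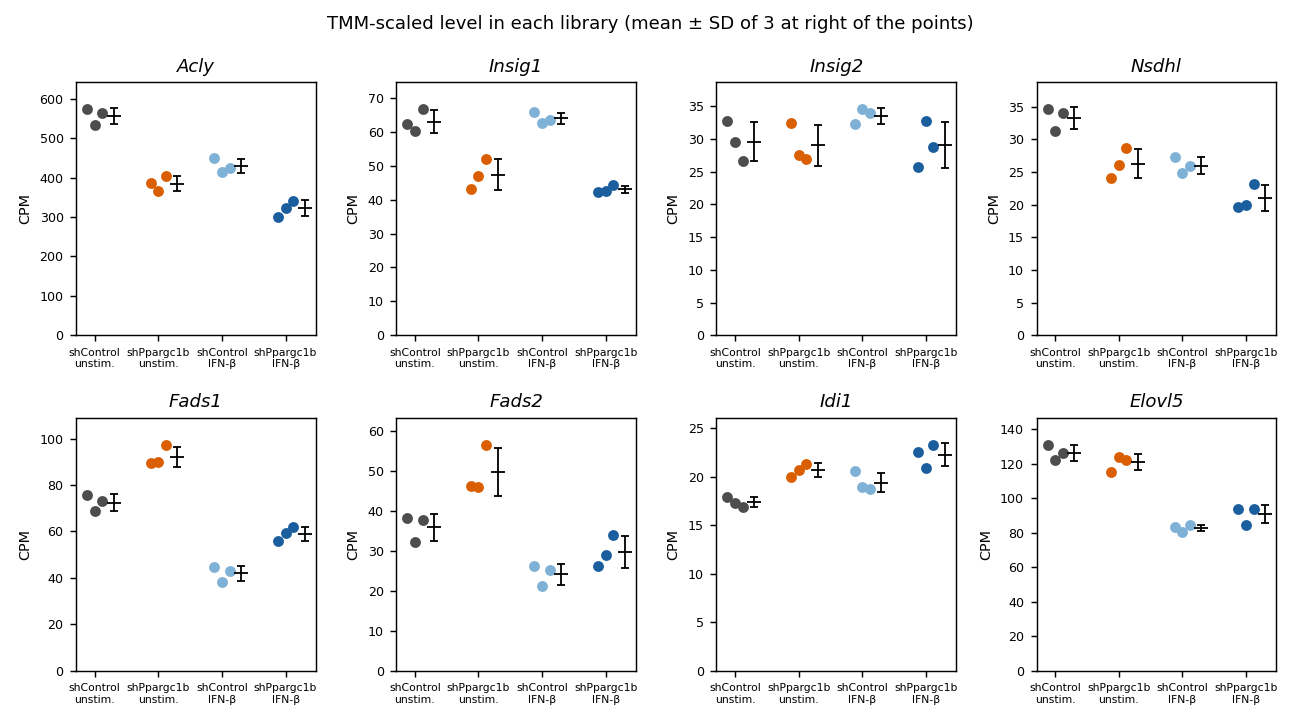
CPM (y axis) in each library of the 4 groups (x axis), with the mean ± SD of 3 libraries to the right of the points, for 8 genes of the pathway. *Acly*, *Insig1* and *Nsdhl* are lower and *Fads1* and *Idi1* higher in every sh*Ppargc1b* library than in any shControl library of the same treatment, while *Insig2* overlaps between cell types in both conditions.

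Among sterol enzymes, *Nsdhl*, the sterol dehydrogenase whose promoter is printed above, ranged from 31.3 to 34.6 CPM in unstimulated shControl against 24.1 to 28.7 CPM in sh*Ppargc1b* cells, and from 24.8 to 27.3 against 19.7 to 23.2 CPM with IFN-β. It was lower by 0.34 ± 0.07 (adjusted p = 0.00364) and 0.31 ± 0.08 (adjusted p = 0.00781), and all 19 alternatives called both. *Ebp* was lower by 0.25 (adjusted p = 0.0134) and 0.20 (adjusted p = 0.0459), calls that 2 and 13 alternatives lost (adjusted p up to 0.0681 and 0.142). The 2 were without shControl library 3 and without sh*Ppargc1b* library 1. *Idi1* was higher by 0.25 (adjusted p = 0.00669) and 0.20 (adjusted p = 0.0265), and 5 alternatives lost the second (adjusted p up to 0.145). *Hsd17b7* was higher by 0.37 in unstimulated cells (adjusted p = 0.0223), with 19.2 to 23.3 against 22.6 to 30.8 CPM, and the call was lost without shControl library 1 or 2 or sh*Ppargc1b* library 2 or 3 (adjusted p up to 0.113). *Dhcr7*, *Mvd*, *Sc5d* and *Msmo1* were called with IFN-β but not without it, except that *Mvd* was also called without it in 2 of 19 alternatives, with library codes as blocks (adjusted p = 0.0357) and without shControl library 2. *Dhcr7* had 19.7 to 21.9 CPM in treated shControl and 13.9 to 18.0 CPM in treated sh*Ppargc1b* cells, a difference of -0.40 ± 0.08 (adjusted p = 0.00242), and was at -0.14 (adjusted p = 0.246) in unstimulated cells. *Mvd* was at -0.25 (adjusted p = 0.00901) with IFN-β and -0.16 (adjusted p = 0.0822) without, and *Sc5d* at -0.20 (adjusted p = 0.0137) and -0.08 (adjusted p = 0.312). *Msmo1* was at -0.17 (adjusted p = 0.0355) and -0.00 (adjusted p = 0.973), and 8 alternatives lost the first (adjusted p up to 0.0992). None of these differences between conditions passed the interaction test. *Hmgcs1*, *Mvk*, *Pmvk*, *Fdps*, *Fdft1*, *Sqle*, *Lss*, *Cyp51* and *Tm7sf2* did not pass the test in either condition, with log2 fold changes between -0.22 and 0.19. With library codes as blocks *Hmgcs1* was called higher in unstimulated cells (0.19, adjusted p = 0.0322), and *Fdft1* (-0.20, adjusted p = 0.0229) and *Lss* (-0.20, adjusted p = 0.041) were called lower with IFN-β.

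Other genes of sterol and fatty acid metabolism were counted from fixed lists. Beside these counts, 24.6% of all genes fell and 23.7% rose with IFN-β in shControl, and 21.2% fell and 21.4% rose in sh*Ppargc1b* cells. Knockdown left 12.4% of all genes higher and 11.1% lower without IFN-β, and 11.5% higher and 12.7% lower with it. Of 14 tested genes of sterol and isoprenoid synthesis outside the 34, 7 fell and 3 rose with IFN-β in shControl and 8 fell and 1 rose in sh*Ppargc1b* cells. *Acat2*, the acetyl-CoA acetyltransferase that feeds HMG-CoA synthase, fell most in both (-0.80 and -0.82), and *Pggt1b*, a subunit of a protein prenyltransferase, rose most (0.35 and 0.26). Knockdown left 2 higher and 0 lower without and 2 higher and 2 lower with IFN-β. Of 11 genes of SREBP processing and degradation, 4 rose and 3 fell with IFN-β in shControl and 3 rose and 2 fell in sh*Ppargc1b* cells. *Rnf139*, an endoplasmic reticulum ubiquitin ligase, rose most (0.99 and 0.78), and *Mbtps1*, which encodes the site-1 protease that cuts SREBPs, fell most (-0.31 and -0.17). Knockdown left 2 higher and 3 lower, and with IFN-β 4 higher and 3 lower. Without IFN-β the largest rise in the knockdown was in *Nfya* (0.23), a subunit of the CCAAT-binding factor, and the largest fall in *Fbxw7* (-0.30). With IFN-β the largest rise was in *Ube2g2* (0.25) and the largest fall in *Rnf139* (-0.38), and *Nfya* was again among the higher genes (0.18).

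Of 16 genes of sterol uptake, storage and export, 10 rose and 3 fell with IFN-β in shControl and 9 rose and 4 fell in sh*Ppargc1b* cells (medians 0.15 and 0.19), where 23.7% of all genes rose and 24.6% fell in shControl and 21.4% and 21.2% in sh*Ppargc1b* cells. This balance rested on the scaling, since under library totals 6 rose and 7 fell (median -0.10) in shControl and 6 rose and 6 fell (median -0.01) in sh*Ppargc1b* cells. *Nr1h3*, which encodes the oxysterol receptor LXRα, rose most (1.27 and 1.15), and the largest falls were in *Gramd1a* in shControl (-0.27) and *Gramd1b* in sh*Ppargc1b* cells (-0.29), both carriers of sterol from the plasma membrane. *Npc2*, the lysosomal cholesterol carrier, rose by 1.17 in shControl and by 0.84 in sh*Ppargc1b* cells, and was the gene of these lists that passed the interaction test (-0.33, adjusted p = 0.0238). Knockdown left 3 higher and 4 lower, and with IFN-β 1 higher and 5 lower, with *Nceh1*, a cholesteryl ester hydrolase, lowest without (-0.55) and *Osbp*, an oxysterol-binding protein, lowest with IFN-β (-0.42). Of 27 tested genes of fatty acid metabolism outside the 34, 10 fell and 7 rose with IFN-β in shControl and 10 fell and 6 rose in sh*Ppargc1b* cells. *Acsl1*, an acyl-CoA synthetase, rose most (1.81 and 1.43), and *Elovl7*, an elongase, fell most in shControl (-1.74). *Fads6*, a gene of few counts, fell most in sh*Ppargc1b* cells (-1.46). Knockdown left 8 higher and 8 lower, and with IFN-β 7 higher and 4 lower. Over all genes 12.4% were higher and 11.1% lower in the knockdown without IFN-β, and 11.5% and 12.7% with it. Under library totals, a check chosen after the data were seen, the counts with IFN-β in shControl and sh*Ppargc1b* cells became 11 fallen and 1 risen and 11 and 0 for the sterol and isoprenoid list, 7 and 1 and again 7 and 1 for the SREBP list, and 16 and 3 and 14 and 4 for the fatty acid list. *Fads3*, another member of the fatty acid desaturase cluster, rose most in the knockdown (0.76 and 0.84), with 3.74 to 4.52 CPM in unstimulated shControl against 6.54 to 7.45 CPM in sh*Ppargc1b* cells. *Acacb*, the mitochondrial acetyl-CoA carboxylase, was lowest in unstimulated knockdown cells (-1.60), from levels of 1.71 to 2.04 CPM in shControl and 0.424 to 0.788 CPM in sh*Ppargc1b* cells. *Fads6* was lowest with IFN-β (-1.87), again from few counts.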

How the data were processed

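RNA-seq was measured in 12 libraries (3 per group) with 49919648 to 77726101 counts each. Per the labels and the study's methods, the authors depleted ribosomal RNA, trimmed reads with Trim Galore 0.6.0, mapped them to mm10 (GRCm38) with STAR 2.7.8a (per the submitters' processing notes) and deposited raw counts per gene, with no normalization. Counts were analysed in edgeR 4.0.16 (R 4.3.3): genes were kept by filterByExpr (minimum count 10, total 15), scaled by TMM and tested with quasi-likelihood F-tests in 1 model of 4 group means, with Benjamini-Hochberg adjustment over 18228 genes (99.96% of counts) and a threshold of 0.05. Where no tool is named, an adjusted p is from this test, and the error beside a log2 fold change is its SE. Exon lengths and overlaps came from GENCODE M21. Alternatives were library totals, upper quartile factors, DESeq2 1.42.0, limma-voom 3.58.1, all genes with at least 1 count, library codes as blocks (1 block per consecutive run), only the groups compared, a size limit of 0.5 on the log2 fold change, and each library left out. The fit was tested on simulated data. The members, the lists and the rule for named genes were chosen with earlier results of these data known. Library values are given for the genes with the 4 largest changes of each comparison, paralog pairs and *Ch25h*, and the other lists by counts and their largest rise and fall. The largest rise and fall were taken over all tested genes of a list, whether called or not. Replicates were numbered in record order and were never identical (chi-square per gene 10.2 to 26.4).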

Additional observations from a re-analysis of the deposited data

How the results depend on the processing

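Limits: calls were made at 3 libraries a group, the counts may not separate antisense genes or near-identical copies, and small changes close to the threshold depend on the setting. No paired analysis by replicate number was possible because the labels give none, and the block used runs of library codes, each of which holds 1 library of every group. Over all tested genes, libraries of the same run deviated from their group means with correlations of 0.0276 to 0.146 (median 0.0867, 5 of 18 pairs above 0.1). Those of different runs had -0.154 to 0.0565 (median -0.0436, 0 of 36 pairs above 0.1). Libraries of a run thus deviated together, though weakly, and the main fit does not use this. The labels do not say what the libraries of a run share, so the fit with blocks is given as an alternative. Under library totals alone the IFN-β response in shControl turned sign for *Idi1* (-0.079), *Insig1* (-0.22), *Srebf1* (-0.21) and *Acss2* (-0.18), since that scaling also lowers the median of all genes. No other sign turned for a called gene. A size limit of 0.5 on the log2 fold change left fewer genes by construction: for knockdown in unstimulated cells 0 sterol enzymes, 1 regulator and 1 fatty acid enzyme, for knockdown with IFN-β 0, 1 and 0, for IFN-β in shControl 3, 2 and 6, and for IFN-β in sh*Ppargc1b* 5, 2 and 5. Fatty acid enzymes called for knockdown in unstimulated cells numbered 3, against 5 with DESeq2, 6 with all genes of at least 1 count, 5 with library codes as blocks and 5 with only the groups compared. With IFN-β they numbered 2, against 4 with library totals, with all genes, with the block and with only the groups compared. Regulators called for knockdown with IFN-β numbered 2, against 4 with the block and 1 with only the groups compared. In the interaction 0 regulators were called, against 1 (*Ch25h*) with all genes and 1 with the block. The causes of these shifts were not tested. Leaving out 1 library at a time gave, for sterol enzymes, regulators and fatty acid enzymes, 3 to 4, 2 to 2 and 3 to 5 calls for knockdown in unstimulated cells, 4 to 8, 1 to 3 and 2 to 4 for knockdown with IFN-β, 10 to 14, 3 to 4 and 8 to 9 for IFN-β in shControl, 11 to 14, 3 to 5 and 8 to 10 for IFN-β in sh*Ppargc1b*, and 0 to 0, 0 to 1 and 0 to 0 for the interaction. Beyond 1.5 times the main count lay, for knockdown with IFN-β, 4 sterol enzymes without sh*Ppargc1b* IFN-β library 1, 1 regulator without any untreated library except sh*Ppargc1b* 1 and without shControl IFN-β library 1, and 4 fatty acid enzymes without any untreated library. For knockdown in unstimulated cells 5 fatty acid enzymes were called without sh*Ppargc1b* IFN-β library 3, and in the interaction *Ch25h* without sh*Ppargc1b* IFN-β library 2. Over all genes the interaction called 133 genes, 449 with DESeq2, 525 with all genes and 485 with the block, and 8.27% of them rose, against 20.2% of 84 with library totals, 18.7% with DESeq2 and 19.6% with all genes.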
